A study of Mus musculus with 6 samples.

Results

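The genes of de novo fatty acid synthesis were followed in brown adipose tissue in which deletion of the lipid droplet gene Bscl2 was directed to brown adipocytes. A set of 10 genes was named by symbol, namely Acly, Acaca, Acacb, Fasn, Scd1, Scd2, Elovl6, Me1, Thrsp and Mlxipl, and 9 of them were among the 12966 genes listed. Acly, the gene of ATP citrate lyase, is not analysed here. Thrsp and Mlxipl encode regulators of the pathway and not enzymes. The BKO group held 3 libraries from male mice with floxed Bscl2 alleles (Bscl2f/f) and a Cre recombinase under the Ucp1 promoter, and the Ctrl group held 3 libraries from male Bscl2f/f mice without the Cre. All mice were 10 weeks old and of the C57BL/6J strain, and both groups carried the floxed alleles. Bscl2 encodes seipin, a protein of the endoplasmic reticulum at which lipid droplets form, and Ucp1 is expressed in brown adipocytes, so the deletion is directed to those cells. The Cre was present in BKO mice only, so its own effect and that of Bscl2 loss cannot be told apart. The labels do not say that the libraries of a group come from separate mice. The p-values therefore weigh the differences against the spread between libraries, and this spread may be technical.

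De novo synthesis turns surplus glucose carbon into fat. Citrate leaves the mitochondria and is cleaved to acetyl-CoA, acetyl-CoA carboxylase turns this into malonyl-CoA, and fatty acid synthase joins malonyl-CoA units into palmitate with NADPH as the reductant. Palmitate is then lengthened by Elovl6 and desaturated by stearoyl-CoA desaturase before it is built into triacylglycerol. The transcription factors SREBP-1c, which answers to insulin, and ChREBP, which answers to glucose, control most of these genes, and brown fat is known as a tissue with a high rate of the pathway.

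To show the control regions of genes that differed in their pattern, the 250 bases before the start of Fasn, Thrsp and Acacb are given from RefSeq on build GRCm38.p6, which is not the build of the expression values. Fasn and Thrsp were lowest in the same library, BKO-3, and Acacb varied little. Capitals mark matches on either strand to CCAAT, the box bound by NF-Y, a factor that acts beside SREBP at many lipogenic promoters.
Fasn, chr11:120824548-120824797, minus strand: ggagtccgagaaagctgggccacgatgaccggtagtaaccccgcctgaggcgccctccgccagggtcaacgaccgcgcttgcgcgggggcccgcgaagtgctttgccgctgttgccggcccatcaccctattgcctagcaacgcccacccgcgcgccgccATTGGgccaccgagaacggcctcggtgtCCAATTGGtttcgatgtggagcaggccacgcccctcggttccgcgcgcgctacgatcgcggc
Thrsp, chr7:97417551-97417800, minus strand: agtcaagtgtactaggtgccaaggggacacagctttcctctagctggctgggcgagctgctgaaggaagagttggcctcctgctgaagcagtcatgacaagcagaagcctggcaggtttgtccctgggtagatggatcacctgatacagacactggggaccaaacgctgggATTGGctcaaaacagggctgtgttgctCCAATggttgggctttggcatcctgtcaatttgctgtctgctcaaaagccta
Acacb, chr5:114165268-114165517, plus strand: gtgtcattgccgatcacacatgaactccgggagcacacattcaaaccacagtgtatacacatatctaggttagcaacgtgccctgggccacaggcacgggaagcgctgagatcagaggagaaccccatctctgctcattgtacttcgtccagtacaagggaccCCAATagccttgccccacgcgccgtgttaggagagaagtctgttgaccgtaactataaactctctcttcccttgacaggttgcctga
RefSeq promoters were at hand for 7 of the 9 genes, with 9 start sites in all, and Scd1 and Scd2 had no entry. In windows from 250 bases before to 50 after the start, CCAAT was found at 5 of the 9 start sites, against 37.4% of all 32851 promoters of the same length. Fasn held 3 matches, which began 90, 62 and 59 bases before the start on the minus, plus and minus strand of the promoter, and the last of them overlapped the one before it. Thrsp held 2 matches, 79 and 52 bases before the start, and Acacb held 1, 87 bases before it. The E box CACGTG was found at 1 of the 9 start sites and in 7.15% of all promoters, in the upstream window of Mlxipl. The core of the sterol regulatory element, TCACNCC, was found at 1 start site, the downstream window of Mlxipl, and in 15.6% of all promoters. The GC box GGGCGG was found at 2 start sites, of Me1 and Mlxipl, and in 35.7% of all promoters. The windows of Acaca and Elovl6, which were also lowest in BKO-3, held none of these letters. Me1, lowest in BKO-3 too, and Mlxipl, which was not, each held 1 CCAAT match. Any relation of the matches to the pattern of levels was not tested.

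Values are FPKM, fragments scaled to transcript length and library size, so levels can be compared between genes on this per-length scale. The number of reads behind them is unknown. Where 3 values are given for a group, they follow the order of its libraries, from BKO-1 to BKO-3 and from Ctrl-1 to Ctrl-3. The labels were checked on the targeted gene first. Bscl2 stood at 16.5, 16.9 and 18.9 FPKM in BKO, against 116, 104 and 106 FPKM in Ctrl. All BKO libraries were far below all Ctrl libraries. The log2 change, taken on log2(FPKM + 1) as all such changes here, was -2.57 (limma with Benjamini-Hochberg adjusted p = 3.95e-05, exact two-sided permutation p = 0.1, the smallest possible with 3 against 3). Brown adipocyte markers were present in every library: all 10 of the list, Ucp1 and Cidea among them, averaged at least 1 FPKM, with a summed level of 9151 to 9751 FPKM in BKO and 8395 to 9678 FPKM in Ctrl. BKO-3 had a total of 2808874 FPKM, of which 2090094 came from mitochondrial transfer RNA rows, against totals of 1119228 to 1617963 FPKM in the other libraries. The factors that align the libraries by their median gene lay between 0.976 and 1.033.

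Most of the 9 genes had a lower mean in BKO, led by Scd1 and Me1, and none passed the test over all genes. The log2 change was negative for 8 of the 9 genes, against 48.4% of all genes tested. The BKO mean was 59.2% of the Ctrl mean for Scd1, 59.3% for Me1, 64.3% for Acaca, 68.6% for Thrsp and 74.4% for Fasn. It was 83.4% for Elovl6, 91.8% for Scd2 and 99.4% for Acacb, so Acacb was level between the groups. Mlxipl, at 113% of the Ctrl mean, was the exception. In 3 genes, Scd1, Me1 and Acaca, every BKO library lay below every Ctrl library, and in the other 6 the groups overlapped. That position was taken by 6.82% of the 11397 genes tested, those with a mean of at least 1 FPKM, while the opposite position was taken by 0 of the 9 genes and 9.06% of all. By limma, 0 of 9 genes were lower and 0 were higher with a Benjamini-Hochberg adjusted p under 0.05. Among all genes tested, 0.00877% were lower and 0.158% higher, and the only lower gene was the targeted gene Bscl2. At an unadjusted p below 0.05 (limma), 4 of the 9 were lower, namely Scd1, Me1, Thrsp and Acaca, against 3.52% of all genes, and 0 were higher, against 6.63% of all genes. The median log2 change of the 9 genes was -0.55, against 0.006 for all genes tested. Without BKO-3 the median of the 9 was -0.16.

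**Figure D1:**
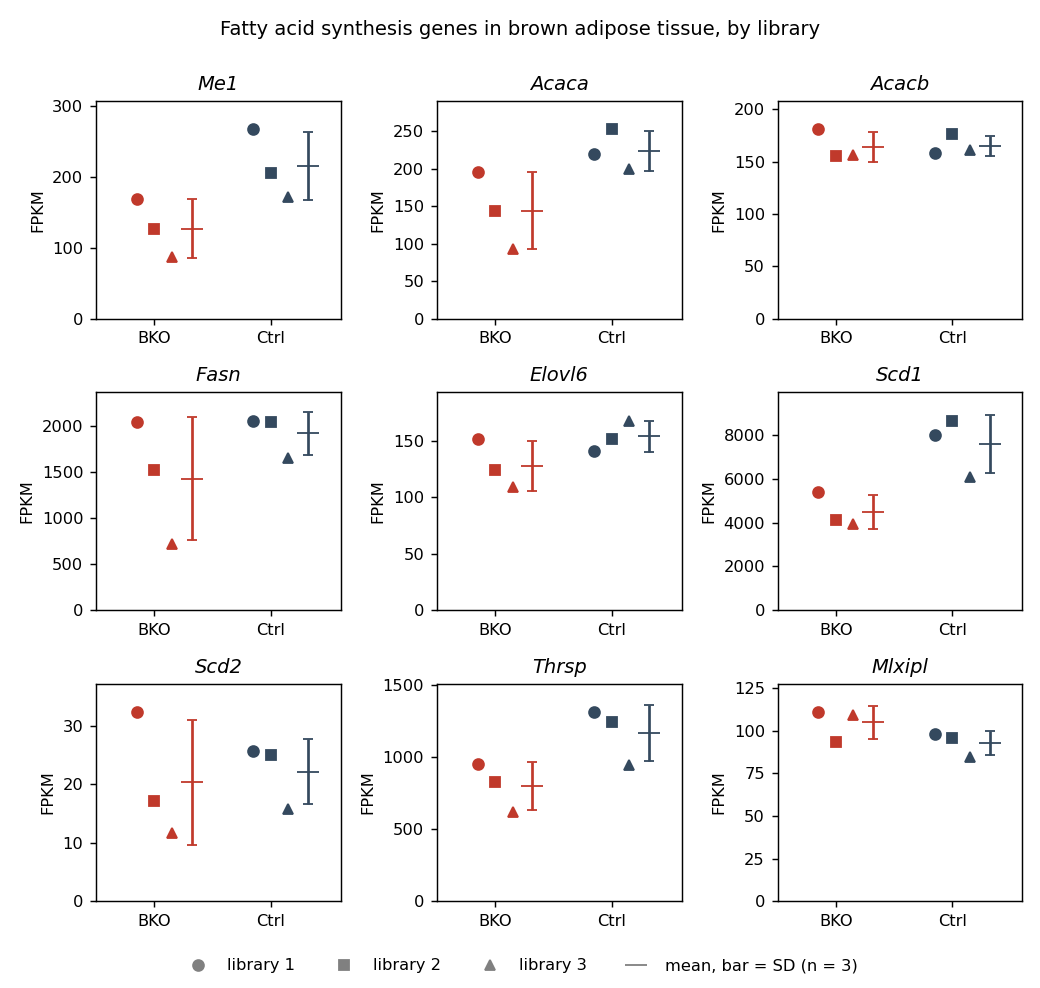
FPKM of each of the 9 genes (vertical axes, from 0) in the 3 BKO and 3 Ctrl libraries, with symbols for the replicate number in the label and the mean with its SD to the right of the points. Scd1, Me1 and Acaca show all BKO points below all Ctrl points, with Scd1 between 3945 and 5400 FPKM in BKO and between 6102 and 8664 FPKM in Ctrl.

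Me1, the cytosolic malic enzyme that supplies NADPH, came first by the size of its log2 change. Its level was 169, 126 and 87.1 FPKM in BKO, against 267, 205 and 172 FPKM in Ctrl. The groups did not overlap, but the highest BKO library and the lowest Ctrl library were close. The log2 change was -0.78 (SE 0.251, 95% interval -1.37 to -0.19, limma with Benjamini-Hochberg adjusted p = 0.374).

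Acaca and Acacb, the genes of the acetyl-CoA carboxylases, did not share a pattern. The enzyme encoded by Acaca makes malonyl-CoA for synthesis in the cytosol, while that encoded by Acacb sits at the mitochondrial surface, where malonyl-CoA restrains the entry of fatty acids for oxidation. Acaca stood at 196, 144 and 92.9 FPKM in BKO, against 220.0, 253 and 200.1 FPKM in Ctrl. The BKO libraries were all below the Ctrl libraries and spread wider, with a coefficient of variation of 35.7% in BKO and 11.8% in Ctrl. Its log2 change was -0.69 (SE 0.247, 95% interval -1.27 to -0.11, limma with Benjamini-Hochberg adjusted p = 0.416), and -0.41 without BKO-3. Acacb stood at 181, 155 and 156 FPKM in BKO, against 158, 176 and 161 FPKM in Ctrl. BKO-1 lay above every Ctrl library, and BKO-2 and BKO-3 lay just below every one, so the groups overlapped. Its log2 change of -0.01 had a 95% interval from -0.21 to 0.19 (limma).

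The ratio of Acaca to Acacb within a library is free of library scaling. It was 1.08, 0.929 and 0.596 in BKO, against 1.39, 1.44 and 1.24 in Ctrl. Every BKO library had the lower ratio, and in BKO-2 and BKO-3 Acacb exceeded Acaca, which happened in no Ctrl library. The log2 ratio averaged -0.25 ± 0.447 in BKO and 0.44 ± 0.111 in Ctrl (SD, n = 3 each), a difference of -0.68 with an exact two-sided permutation p = 0.1, the smallest that 3 against 3 libraries allow, and 0.3 after Benjamini-Hochberg adjustment over 3 ratios. Without BKO-3 the difference was -0.43. The longest Acacb transcript in GENCODE vM21 shares 0 of its 8739 windows of 50 bases with Acaca transcripts.

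Fasn, fatty acid synthase, was split among the BKO libraries. It stood at 2049, 1525 and 720.5 FPKM in BKO, against 2064, 2050 and 1657 FPKM in Ctrl. BKO-1 was level with the upper Ctrl libraries, at 106% of the Ctrl mean, and BKO-3 was at 37.5% of it. The coefficient of variation was 46.7% in BKO and 12% in Ctrl. The log2 change was -0.55 (SE 0.348, 95% interval -1.36 to 0.27, limma with Benjamini-Hochberg adjusted p = 0.651), -0.11 without BKO-3 and -0.87 without BKO-1. In rank by FPKM among all listed genes, Fasn was at 30, 40 and 101 in BKO, against 31, 33 and 41 in Ctrl.

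Elovl6, the elongase that turns palmitate into stearate, stood at 152, 124 and 109 FPKM in BKO, against 141, 152 and 168 FPKM in Ctrl. BKO-2 and BKO-3 lay below all Ctrl libraries, while BKO-1 lay among them. The log2 change was -0.27 (95% interval -0.58 to 0.04, limma with Benjamini-Hochberg adjusted p = 0.543), and -0.16 without BKO-3.

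**Figure D2:**
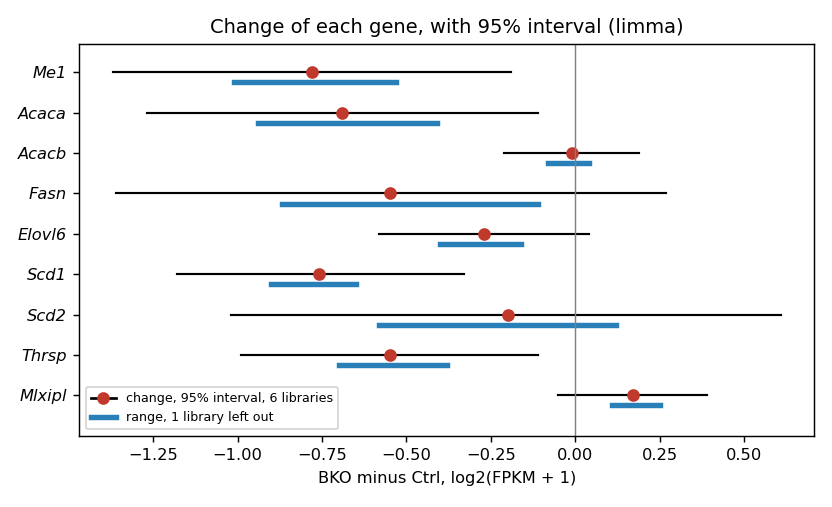
Change of each gene in BKO minus Ctrl on the log2(FPKM + 1) scale (horizontal axis), as limma's estimate from 6 libraries with its 95% interval (dot and black line) and the range of estimates with 1 library left out (blue bar). The intervals of Me1, Acaca, Scd1 and Thrsp lie below 0 before any adjustment for the number of genes, and the blue bars of Acacb and Scd2 cross 0.

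Scd1, the main stearoyl-CoA desaturase of adipose tissue, was the most abundant of the 9 genes in every library. It stood at 5400, 4114 and 3945 FPKM in BKO, against 7984, 8664 and 6102 FPKM in Ctrl. All BKO libraries were below all Ctrl libraries, BKO-1 included. The log2 change was -0.76 (SE 0.180, 95% interval -1.18 to -0.33, limma with Benjamini-Hochberg adjusted p = 0.248), and with 1 library left out it ranged from -0.90 to -0.65. Among all listed genes it ranked 20, 18 and 28 in BKO, against 16, 16 and 18 in Ctrl.

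Scd2, the isoform best known from brain and from young animals, was the least abundant of the 9. It stood at 32.4, 17.2 and 11.7 FPKM in BKO, against 25.8, 25.1 and 15.8 FPKM in Ctrl. BKO-1 was above every Ctrl library and BKO-3 below every Ctrl library, so the groups overlapped fully. The log2 change of -0.20 had a 95% interval from -1.02 to 0.61 (limma), and it was 0.12 without BKO-3 and -0.58 without BKO-1. Of 5406 windows of 50 bases in the longest Scd2 transcript of GENCODE vM21, 2.68% also occur in Scd1 transcripts, and with Scd1 at 167 to 386 times the level of Scd2 in the same library, Scd2 values are uncertain where such reads were split.

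Ratios of Scd1 to the other genes also varied between libraries. Scd1 to Scd2 was 167, 239 and 338 in BKO, against 309, 345 and 386 in Ctrl. BKO-3 lay within the Ctrl range, and the difference in the mean log2 ratio was -0.54 (exact two-sided permutation p = 0.2, adjusted over 3 ratios 0.3), and -0.28 without BKO-1. Scd1 to Fasn was 2.64, 2.70 and 5.48 in BKO, against 3.87, 4.23 and 3.68 in Ctrl. BKO-1 and BKO-2 were below the Ctrl range and BKO-3 above it, with a difference of -0.21 in the mean log2 ratio (exact two-sided permutation p = 0.6, also 0.6 after adjustment). That difference was -0.03 without BKO-1, -0.04 without BKO-2 and -0.56 without BKO-3.

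**Figure D3:**
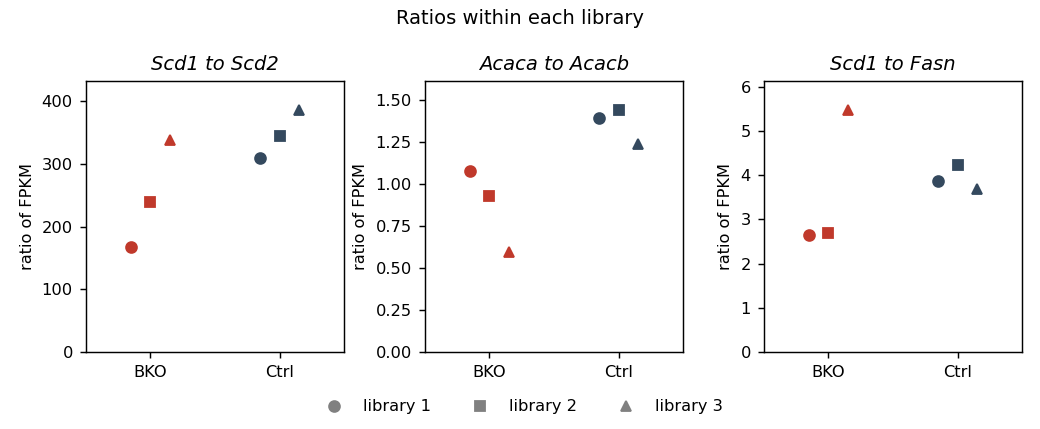
Ratio of FPKM between named pairs within each library (vertical axes, from 0), for the 3 BKO and 3 Ctrl libraries, with symbols for the replicate number in the label. Acaca to Acacb lies between 0.596 and 1.08 in BKO and between 1.24 and 1.44 in Ctrl, while BKO-3 stands above all Ctrl libraries for Scd1 to Fasn.

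The regulators went separate ways. Thrsp encodes Spot 14, a small protein induced by thyroid hormone and carbohydrate that promotes lipogenesis. It stood at 955, 830.1 and 619.8 FPKM in BKO, against 1316, 1246 and 946 FPKM in Ctrl. The overlap was slight, with BKO-1 just above Ctrl-3. The log2 change was -0.55 (SE 0.187, 95% interval -0.99 to -0.11, limma with Benjamini-Hochberg adjusted p = 0.403). Mlxipl, the gene of ChREBP, stood at 111, 93.4 and 109 FPKM in BKO, against 97.9, 96.0 and 84.4 FPKM in Ctrl. BKO-1 and BKO-3 were above every Ctrl library and BKO-2 was among them. The log2 change of 0.17 had a 95% interval from -0.05 to 0.39 (limma with Benjamini-Hochberg adjusted p = 0.598). RefSeq lists 2 start sites of Mlxipl, 17001 bases apart, and the gene is known to give the isoforms ChREBP-alpha and ChREBP-beta from different first exons. The value per gene does not separate them.

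The order of levels was much the same in both groups at the top and the bottom. In BKO it ran from Scd1 at 4486 ± 796 FPKM through Fasn at 1432 ± 669 and Thrsp at 802 ± 170 to Scd2 at 20.4 ± 10.7 FPKM, and in Ctrl from Scd1 at 7583 ± 1327 through Fasn at 1924 ± 231 and Thrsp at 1169 ± 197 to Scd2 at 22.2 ± 5.59 FPKM (SD, n = 3 each). Between them, Acacb, Acaca, Elovl6, Me1 and Mlxipl followed in that order in BKO, each overlapping the next over the libraries. In Ctrl the order was Acaca, Me1, Acacb, Elovl6 and Mlxipl, with overlap between all neighbours except Elovl6 and Mlxipl. Fasn and Thrsp overlapped in BKO and not in Ctrl.

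The libraries of the BKO group differed from each other in a way that most of the genes shared. All 9 genes were highest among the BKO libraries in BKO-1, though the share of all genes with this position was not computed. In 7 of 9 genes the level was highest in BKO-1, next in BKO-2 and lowest in BKO-3, an order that 15.5% of all tested genes had. The exceptions were Acacb and Mlxipl. BKO-3 held the lowest value of all 6 libraries in 7 of 9 genes, against 15.1% of all tested genes. With each gene set relative to its own mean, the median over the 9 genes was 0.14, -0.20 and -0.62 in BKO, against 0.34, 0.35 and 0.06 in Ctrl, on the log2 scale. BKO-1 thus lay between Ctrl-3 and the other Ctrl libraries. The Ctrl libraries differed as well, with 7 of the 9 genes lowest among them in Ctrl-3, for which no share over all genes was computed. The remaining Bscl2 transcript rose from BKO-1 to BKO-3, at 15.1%, 15.5% and 17.4% of the Ctrl mean, while most of the 9 genes fell. Of the marker sums, only those of macrophages and of preadipocytes and fibroblasts fell in the order of most of the genes. The 14 macrophage markers summed to 254, 219.9 and 187 FPKM in BKO, against 97.5, 64.1 and 60.1 FPKM in Ctrl. The 8 preadipocyte and fibroblast markers summed to 301, 266 and 257 FPKM in BKO, against 258, 216 and 212 FPKM in Ctrl. Endothelial markers ran the other way, at 289.7, 296 and 307 FPKM in BKO. Brown adipocyte markers, at 9307, 9751 and 9151 FPKM in BKO, followed neither order. Nor did the general adipocyte, white adipocyte, skeletal muscle and erythroid markers. BKO-3 also stood apart in the table itself, with 10 genes listed at 0 against 90 to 111 in each other library. The part of these measures in the pattern was not tested.

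**Figure D4:**
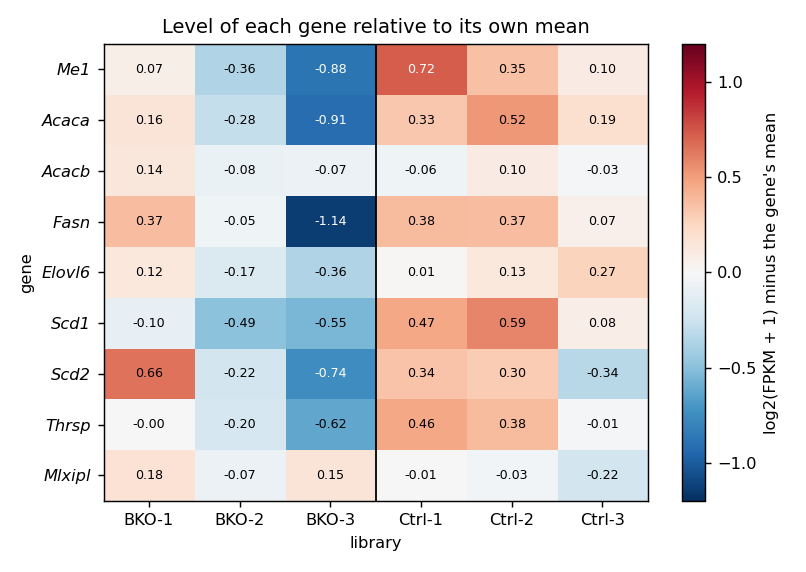
Level of each gene in each library as log2(FPKM + 1) minus the gene's mean over 6 libraries (colour and printed value), with BKO libraries left of the line and Ctrl libraries right of it. BKO-3 is the lowest column for 7 of 9 genes, and the Acacb and Mlxipl entries stay near 0.

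Markers of other cells were measured in the same libraries. Of the 14 macrophage markers 6 rose past the test and none was listed at 0, and of the 8 preadipocyte and fibroblast markers 0 passed. The 8 general adipocyte markers, Adipoq and Plin1 among them, summed to 13807 to 15396 FPKM in BKO and 13770 to 14598 FPKM in Ctrl, with 0 past the test. Skeletal muscle markers, 13 of 15 listed, ranged from 147 to 442 FPKM in BKO and from 99.2 to 675 FPKM in Ctrl. Endothelial markers summed to 290 to 307 FPKM in BKO and 257 to 303 FPKM in Ctrl, erythroid markers to 502 to 511 FPKM in BKO and 426 to 678 FPKM in Ctrl, and the 6 of 9 listed white adipocyte markers to 51.4 to 53.9 FPKM in BKO and 40.6 to 54.2 FPKM in Ctrl. The part of these cells in the results was not tested, and in whole tissue fewer cells of a type and less RNA per cell cannot be told apart.

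None of the 11 genes that feed the pathway with acetyl-CoA and citrate passed the test. Their median log2 change was -0.22, and 10 of 11 changes were negative, against 48.4% of all genes tested. In 8 of 11 all BKO libraries were below all Ctrl libraries, against 6.82% of all genes. Slc25a1, the mitochondrial citrate carrier, stood at 213, 171 and 125 FPKM in BKO, against 278, 283 and 259.9 FPKM in Ctrl (limma with Benjamini-Hochberg adjusted p = 0.248). Acss2, which makes cytosolic acetyl-CoA from acetate, stood at 94.2, 63.0 and 55.4 FPKM in BKO, against 128, 142 and 99.6 FPKM in Ctrl (adjusted p = 0.274, limma). The groups did not overlap for either gene. Brp44l, the earlier symbol of the pyruvate carrier gene Mpc1, averaged 650 ± 84.7 FPKM in BKO and 755 ± 33.3 FPKM in Ctrl (SD, n = 3 each).

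Of 7 further genes of NADPH supply and the pentose phosphate pathway, 5 had a negative change, against 48.4% of all genes, with a median of -0.19 and 0 past the test. In 3 of the 7 (Tkt, Taldo1 and Me2) all BKO libraries were below all Ctrl libraries, against 6.82% of all genes tested. In 1 (Me3) all were above, against 9.06% of all genes tested. Tkt, transketolase, stood at 554, 474 and 377 FPKM in BKO, against 789, 743 and 601 FPKM in Ctrl, with no overlap (limma with Benjamini-Hochberg adjusted p = 0.281). Taldo1, transaldolase, averaged 439 ± 57.5 FPKM in BKO and 523 ± 18.8 FPKM in Ctrl (SD, n = 3 each). Me3, a mitochondrial malic enzyme picked out once its values were known, was at 33.9, 37.4 and 32.9 FPKM in BKO, against 32.4, 30.5 and 32.6 FPKM in Ctrl.

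The lists of regulators did not lean one way. The SREBP pathway list had a median of 0.01 over 8 genes, the ChREBP and LXR list 0.02 over 8 and the list for control of acetyl-CoA carboxylase -0.05 over 7, with 0 past the test in each. Srebf1, the gene of SREBP-1, stood at 43.2, 40.4 and 33.2 FPKM in BKO, against 58.4, 55.2 and 36.8 FPKM in Ctrl. The groups overlapped only through Ctrl-3. The log2 change of Srebf1 was -0.34, with a 95% interval from -0.76 to 0.09 (limma with Benjamini-Hochberg adjusted p = 0.587). Insig1, an SREBP target that holds SREBP precursors in the endoplasmic reticulum, stood at 139, 95.4 and 90.4 FPKM in BKO, against 85.3, 83.7 and 77.4 FPKM in Ctrl, so every BKO library was higher (limma with Benjamini-Hochberg adjusted p = 0.490). Its log2 change was 0.37, and 0.18 without BKO-1. Txnip, a target of ChREBP, averaged 534 ± 100.1 FPKM in BKO and 502 ± 71.4 FPKM in Ctrl (SD, n = 3 each), and Nr1h2, an LXR gene, 37.1 ± 1.56 FPKM in BKO and 35.4 ± 2.64 FPKM in Ctrl. For carboxylase control, Stk11, the kinase upstream of AMPK, averaged 53.9 ± 4.12 FPKM in BKO and 47.4 ± 2.13 FPKM in Ctrl, and Mlycd, which degrades malonyl-CoA, 50.7 ± 0.315 FPKM in BKO and 50.5 ± 2.22 FPKM in Ctrl.

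Other fatty acid enzymes and glucose entry genes showed 0 genes past the test. Elovl5, an elongase of polyunsaturated fatty acids, was 56.9, 51.1 and 54.6 FPKM in BKO, against 48.0, 44.9 and 46.5 FPKM in Ctrl, all BKO libraries being higher. Elovl3, the cold-induced elongase of brown fat, averaged 44.5 ± 7.59 FPKM in BKO and 42.7 ± 22.5 FPKM in Ctrl (SD, n = 3 each). Its list of 5 had a median of 0.16. Of 7 glucose entry genes the median was -0.04, with Slc2a4, the insulin-responsive glucose transporter, at 183 ± 11.0 FPKM in BKO and 188 ± 8.49 FPKM in Ctrl, and Akt2 at 109 ± 4.53 FPKM in BKO and 127 ± 13.3 FPKM in Ctrl. Hexokinase Hk1, named after its values were seen, was 10.0, 10.0 and 5.72 FPKM in BKO, against 4.04, 4.41 and 5.26 FPKM in Ctrl, with no overlap (limma with Benjamini-Hochberg adjusted p = 0.287). The separate mitochondrial fatty acid synthesis pathway had a median of -0.05 over 6 genes, with Ndufab1 at 311 ± 32.8 FPKM in BKO and 333 ± 8.52 FPKM in Ctrl and Mecr at 138 ± 4.39 FPKM in BKO and 129 ± 5.24 FPKM in Ctrl.

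**Figure D5:**
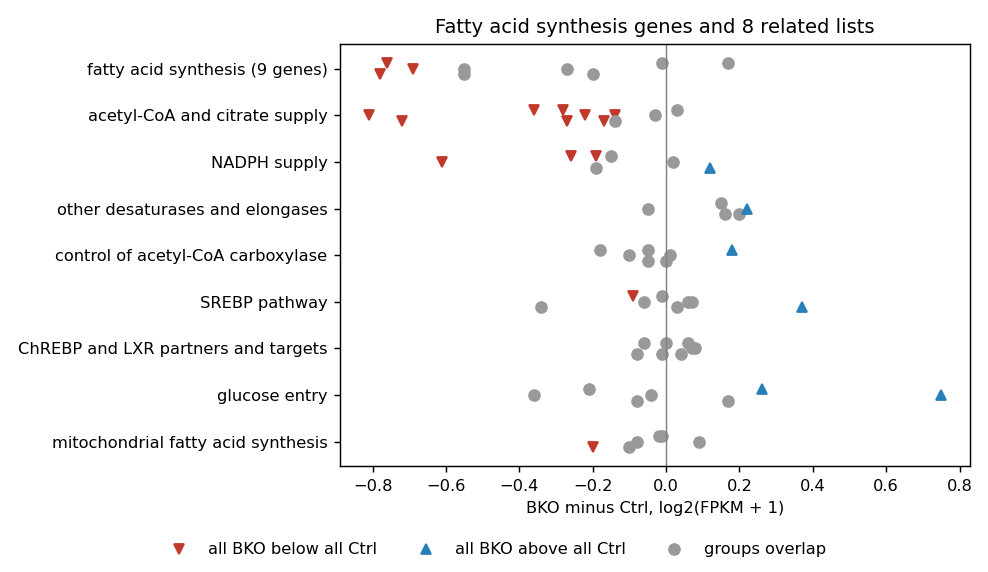
Change of single genes in BKO minus Ctrl on the log2(FPKM + 1) scale (horizontal axis), for the 9 fatty acid synthesis genes and 8 related lists (rows), with the symbol giving whether the libraries of the groups overlap. Downward triangles gather in the top rows, with 8 of 11 genes of acetyl-CoA and citrate supply, and the regulator lists centre on 0.

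The other genes were ranked by how like their profile over the 6 libraries was to the median profile of the 9. Likeness was the root mean square difference of log2 levels set relative to each gene's own mean, over 4634 other genes of at least 10 FPKM. Nearest was Pygl, the liver-type glycogen phosphorylase, with a difference of 0.055, at 183, 155 and 117 FPKM in BKO, against 206, 214 and 181 FPKM in Ctrl. Then came Tkt at 0.097, Dhrs7 at 0.111, Ppp1r3b, a glycogen-targeting subunit of protein phosphatase, at 0.113, Eno1 at 0.121, Acot11 at 0.125, Slc25a1 at 0.134 and Rap1gap at 0.137. Eno1 has near-identical copies among which its reads could be split. For Scd1 alone the nearest were Acss2 at 0.093, Tkt at 0.126, Slc25a1 at 0.168 and Hsd11b1 at 0.182. For Fasn alone the nearest, Slc25a1 at 0.255, Eno1 at 0.267, Pygl at 0.272 and Pgd at 0.276, were farther off. None of these 11 genes passed the test over all genes (limma).

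Among the 9 genes themselves the closest profiles were those of Acacb and Mlxipl, with a root mean square difference of 0.134 on the log2 scale, both of which varied little. Scd1 and Thrsp followed at 0.156, Me1 and Thrsp at 0.172, Acacb and Elovl6 at 0.173 and Acaca and Fasn at 0.178. The farthest pair was Fasn and Mlxipl at 0.590, and Acaca and Acacb were at 0.430.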

How the data were processed

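RNA of brown adipose tissue was measured in 6 libraries, 3 BKO and 3 Ctrl. Libraries were made from Trizol-extracted RNA with a TruSeq kit, per the labels' protocols. The submitters' processing notes name CASAVA 1.8, TopHat2 2.0.12, Cufflinks 2.2.1 and the build NCBIM37, with no options or annotation. The table the authors deposited holds FPKM, normalized for transcript length and library size, so no count test was used. Columns follow the sample names given in the labels, where Ctrl libraries are called MT and BKO libraries WT.

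Values were set as log2(FPKM + 1), and 11397 genes of mean at least 1 FPKM were fitted with limma 3.58.1 (R 4.3.3) using an intensity trend, no covariate and Benjamini-Hochberg adjustment at 0.05. This scale understates changes of low genes. Ratios were tested with SciPy 1.17.1 by exact permutation. The ratio planned with Acly was not computed. The steps were tested on simulated data. The genes and lists were chosen with earlier results of these data known. Named genes were all members, the 2 most abundant genes of each related list where none passed, and the nearest profiles, except for a gene not reported here. Earlier symbols were matched through the RefSeq table.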

Additional observations from a re-analysis of the deposited data

How the results depend on the processing

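None of the 9 genes passed the test in any of the 16 alternatives, at a lowest adjusted p of 0.0609 for Me1 with the replicate block and 0.0872 for Scd1 with limma array weights. Bscl2 passed in all 16, with log2 changes of -2.63 to -2.53 when 1 library was left out. The direction of 7 of the 9 genes held in every alternative. With 1 library left out, Acacb ranged from -0.08 to 0.04, positive also without BKO-2 (0.03) or BKO-3 (0.02), and Scd2 from -0.58 to 0.12, positive without BKO-3. The median of the 9 ranged from -0.69 to -0.16, its weakest value without BKO-3, and the cause was not tested. The genes with all BKO libraries below all Ctrl libraries, 3 with 6 libraries, numbered 7 without BKO-1, 5 without Ctrl-3, 4 with median ratio rescaling and 2 with quantile normalization, and between 3 and 7 over all libraries left out. This alternative was chosen after seeing the data, and a smaller group overlaps less by construction.

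Among related genes, the sign of small changes turned. With 1 library left out, Elovl3 ranged from -0.07 to 0.55 (-0.01 leaving out Ctrl-2), Txnip from -0.06 to 0.20, Slc2a4 from -0.08 to 0.01 and Pgd from -0.37 to 0.05. Mlycd was -0.01 with median ratio or quantile scaling and -0.03 leaving out Ctrl-2, and Txnip -0.07 with array weights. Hsd11b1 passed in 2 alternatives, with limma array weights (adjusted p = 0.0373) and without Ctrl-3 (0.0485). Over all genes, 18 were higher and 1 lower. There were 11 higher with no filter, 9 with a filter of 5 FPKM, 8 with the muscle score as covariate, and 48 higher and 6 lower with array weights. With 1 library left out, 5 to 30 were higher and 1 to 3 lower.

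With the replicate number as a block, 23 genes were higher and 2 lower, and the median of the 9 stayed at -0.55. The labels do not say whether same-numbered libraries belong together. Their deviations from the group means correlated at 0.196, -0.104 and -0.1. BKO-1 correlated best with its own number, and BKO-2 and BKO-3 did not. With 3 libraries per group, these correlations cannot decide whether same-numbered libraries were handled together. FPKM carry no read numbers, so the precision due to depth is unknown.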
